A study of Mus musculus with 12 samples.

Results

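The loci of 10 transcription factor genes of the mesenchymal transition were examined for chromatin accessibility in embryonic fibroblasts of the mouse (MEFs) and in its embryonic stem cells (mESCs): Twist1, Twist2, Tcf21, Snai1, Snai2, Zeb1, Zeb2, Prrx1, Prrx2 and Osr1. A locus was the gene body of the GENCODE M21 annotation (GRCm38) with 20 kb added on each side, and every accessible region ("peak") overlapping it was taken. This gave 69 of the 91354 peaks found in BGI reads and 68 of the 87027 peaks found in Illumina reads. Peaks were present at 9 of the 10 genes on each platform, and Tcf21 had 0 in both peak sets. All 69 and all 68 peaks passed the filter on low counts.

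The assay was Omni-ATAC-seq. In it the Tn5 transposase cuts open chromatin and inserts sequencing adapters. Both cell types were cultured and had a C57/Bl6 background. The MEFs had been sorted as Thy1+ cells and the mESCs as Thy1-, Ssea1+ and Epcam+ cells, with no treatment, and the study calls the 3 libraries of each cell type biological replicates. The MEF libraries are numbered 1, 2 and 4 and the mESC libraries 1, 3 and 5, and each of the 6 libraries was read on both a BGI DNBSEQ-G400 and an Illumina HiSeqX10, giving 12 samples in 4 groups of 3. A level is given in CPM, the count scaled to 1000000 reads in peaks, and a change as log2(mESC/MEF), so that a negative value is lower in mESCs. In bulk samples, fewer cells with an open site and less opening per cell cannot be told apart.

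These factors are known for the epithelial to mesenchymal transition, in which epithelial cells lose their junctions and become migratory. Twist1 and Twist2 are basic helix-loop-helix (bHLH) proteins that pair with E proteins and bind E-boxes. Snai1 and Snai2 are zinc finger repressors, and Zeb1 and Zeb2 are zinc finger proteins with a homeodomain, which bind E-boxes in epithelial genes such as Cdh1 and bring corepressors there. Prrx1 and Prrx2 are paired-related homeodomain proteins of limb, facial and other mesenchyme, Tcf21 is a bHLH factor of visceral mesenchyme, and Osr1 is a zinc finger factor of intermediate mesoderm and connective tissue.

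The sequences below are a selection that shows both kinds of promoter and both directions of change at the loci. First stand the 250 bases before the start of Twist1 and of Snai1 (RefSeq, GRCm38.p6, + strand), which lie in promoter peaks with a large change and with none past the threshold. Capitals mark the E-box CAGGTG, bound by SNAI and ZEB proteins, or its reverse complement, and the E-box CATNTG, bound by TWIST proteins.
Twist1 promoter, chr12:33957421-33957670: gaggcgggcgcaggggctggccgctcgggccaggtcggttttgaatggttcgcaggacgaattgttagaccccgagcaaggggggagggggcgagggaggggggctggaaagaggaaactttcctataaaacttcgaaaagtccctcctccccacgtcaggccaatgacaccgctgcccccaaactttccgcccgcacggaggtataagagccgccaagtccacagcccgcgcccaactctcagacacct
Snai1 promoter, chr2:167537945-167538194: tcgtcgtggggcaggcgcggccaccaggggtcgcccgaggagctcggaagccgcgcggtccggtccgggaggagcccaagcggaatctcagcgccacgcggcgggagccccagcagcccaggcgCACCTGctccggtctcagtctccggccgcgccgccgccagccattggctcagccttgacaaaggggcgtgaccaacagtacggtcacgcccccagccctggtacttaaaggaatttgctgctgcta
The Twist1 promoter held neither E-box, and the Snai1 promoter held 1, a CAGGTG read on the other strand. The RefSeq promoters of Twist2, Zeb2, Prrx1, Prrx2 and Tcf21, which are not printed, held neither. No such sequence was taken for Snai2, Zeb1 and Osr1. The whole Zeb1 promoter peak on BGI held 3 CAGGTG matches. Of 27025 RefSeq promoters of this length, 17.1% held CAGGTG and 35% held CATNTG on either strand.

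The next sequences are the central 200 bases (GRCm38, + strand) of called peaks away from starts. For Twist2, Snai2, Zeb2, Prrx1 and Prrx2 they are the lower peak with the lowest p, and for Snai1 and Prrx2 the higher peak with the lowest p. Capitals mark the 2 E-boxes and the letters TGANTCA (AP-1), CATTCC (TEAD), TGTGGTT (RUNX), ATGCAAA (octamer core of POU factors), CATTGT (SOX), AAGGTCA (ESRRB) and GGGTGTG (KLF), searched on both strands. The first 5 were lower in mESCs and the last 2 higher.
Twist2 intron, chr1:91823504-91823703: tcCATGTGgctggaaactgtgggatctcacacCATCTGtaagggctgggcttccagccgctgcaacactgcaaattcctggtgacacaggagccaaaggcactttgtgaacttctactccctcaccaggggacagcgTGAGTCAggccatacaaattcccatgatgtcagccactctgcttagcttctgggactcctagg
Snai2 upstream, chr16:14704002-14704201: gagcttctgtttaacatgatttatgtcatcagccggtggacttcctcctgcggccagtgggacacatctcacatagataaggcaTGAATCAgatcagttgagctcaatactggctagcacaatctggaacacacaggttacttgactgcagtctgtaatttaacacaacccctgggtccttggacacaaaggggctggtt
Zeb2 downstream, chr2:44976542-44976741: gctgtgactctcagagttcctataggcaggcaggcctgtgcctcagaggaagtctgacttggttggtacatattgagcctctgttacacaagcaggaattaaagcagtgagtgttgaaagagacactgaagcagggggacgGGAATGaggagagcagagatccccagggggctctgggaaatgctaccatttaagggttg
Prrx1 downstream, chr1:163243599-163243798: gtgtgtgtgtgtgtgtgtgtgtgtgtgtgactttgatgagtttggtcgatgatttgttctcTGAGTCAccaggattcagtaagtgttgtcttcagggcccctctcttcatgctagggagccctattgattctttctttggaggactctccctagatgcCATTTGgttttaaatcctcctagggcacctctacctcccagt
Prrx2 downstream, chr2:30885898-30886097: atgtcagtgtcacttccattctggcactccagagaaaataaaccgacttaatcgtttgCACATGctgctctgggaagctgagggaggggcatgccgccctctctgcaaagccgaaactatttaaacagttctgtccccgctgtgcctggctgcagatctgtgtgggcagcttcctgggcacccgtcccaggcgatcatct
Snai1 upstream, chr2:167530091-167530290: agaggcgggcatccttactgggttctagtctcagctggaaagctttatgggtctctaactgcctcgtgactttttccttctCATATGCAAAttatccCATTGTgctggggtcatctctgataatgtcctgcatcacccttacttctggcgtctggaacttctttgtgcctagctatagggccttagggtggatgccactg
Prrx2 downstream, chr2:30884950-30885149: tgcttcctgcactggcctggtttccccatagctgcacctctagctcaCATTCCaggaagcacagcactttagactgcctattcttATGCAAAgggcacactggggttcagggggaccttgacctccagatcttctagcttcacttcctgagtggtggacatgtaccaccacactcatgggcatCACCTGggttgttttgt
The Twist2 intron sequence held 2 TWIST E-boxes and an AP-1 match. AP-1 matches also stood in the Snai2 and Prrx1 sequences, and a TEAD match in the Zeb2 sequence. The same choice of peak gave lower sequences of Twist1, Snai1 and Osr1 and a higher one of Prrx1, which are not printed and held no AP-1 match and no octamer core. It also gave a lower and a higher peak of Zeb1, whose central bases were not taken. Over their whole width the lower one held 1 AP-1 match and the higher one 0, and neither held an octamer core. In the Snai1 upstream sequence the TWIST E-box overlapped the octamer core, and a SOX match followed. The 2 Prrx2 sequences lie next to each other downstream of the gene, and the one that was higher in mESCs held a TEAD match, an octamer core and a SNAI/ZEB E-box. A match is a run of letters and not a measured binding site.

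Most peaks of the 9 loci were less accessible in mESCs than in MEFs. On BGI, 48 of 69 peaks were lower in mESCs, 9 were higher and 12 did not pass the test (edgeR's quasi-likelihood test, two-sided, Benjamini-Hochberg adjusted p under 0.05 over all peaks). Over all BGI peaks 84.1% passed, 43.2% being lower and 40.9% higher, against 82.6%, 69.6% and 13.0% at the 9 loci. On Illumina 47 of 68 peaks were lower, 10 were higher and 11 did not pass. Over all Illumina peaks 84.5% passed, 42.4% being lower and 42.1% higher, against 83.8%, 69.1% and 14.7% at the 9 loci. Peaks that passed were about as frequent here as over all peaks, and a larger share of them was lower in mESCs. The median log2 change was −1.35 on BGI and −1.16 on Illumina, beside −0.08 and −0.03 over all peaks.

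The ranges of the 3 libraries of each cell type did not overlap at 79.7% of the BGI peaks and 88.2% of the Illumina peaks. On BGI the MEF libraries all stood above the mESC libraries at 46 peaks, the mESC libraries above at 9, and the ranges overlapped at 14. Over all BGI peaks 42.2% had MEFs above and 42.9% mESCs above. On Illumina the counts were 47, 13 and 8, beside 41.8% and 43.7% over all peaks. Peaks without overlap were thus about as frequent here as over all peaks, and more of them had MEFs above.

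The median change was smaller at starts than elsewhere. Of the 18 BGI peaks within 1 kb of an annotated start of their own gene, 12 were lower, 2 higher and 4 did not pass, with a median log2 change of −0.86. Of the other 51, 36 were lower, 7 higher and 8 did not pass, with a median of −1.73. Over all BGI peaks the medians were −0.14 within 1 kb of a start of a protein-coding gene and 0.04 elsewhere, with 41.2% lower and 29.2% higher at starts and 44.0% lower and 45.5% higher elsewhere. By position, 16 of 22 peaks in introns and 17 of 19 downstream peaks were lower, against 7 of 18 upstream peaks, of which 4 were higher. Illumina had 10 of 20 upstream peaks lower. The upstream peaks included promoter peaks of Twist1, Snai1, Snai2 and Zeb1 and peaks near the starts of Asb6, a neighbour of Prrx2. Shares by these positions over all peaks were not taken, so the counts describe these loci only.

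The accessibility summed over a locus was lower in mESCs at all 9 loci on BGI and at 8 of 9 on Illumina, Snai2 being the exception. Of all protein-coding genes with a peak, 39.3% were lower by this measure on BGI and 39.4% on Illumina. The size of the change ranged from −3.24 ± 0.09 (SE) at Twist2 to −0.31 ± 0.10 at Snai2 on BGI.

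**Figure D1:**
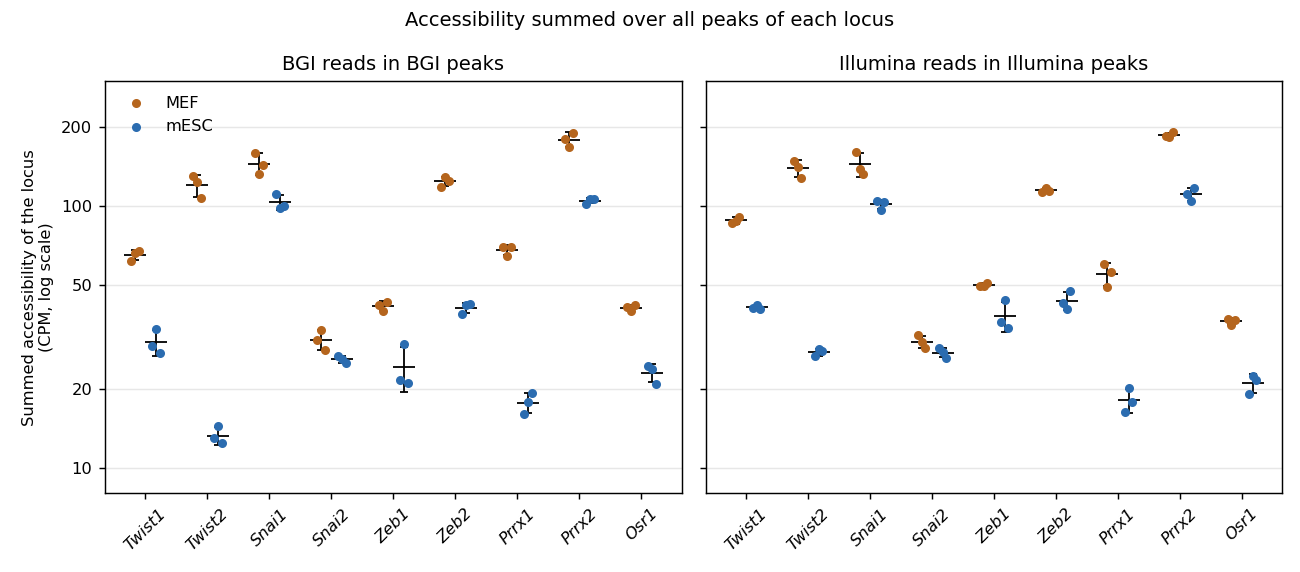
Accessibility summed over the peaks of each locus (CPM, log axis), with BGI on the left and Illumina on the right. Points are the 3 libraries of a cell type, and black bars the mean and SD. The Twist2 locus shows the widest gap, 107 to 130 CPM in MEFs against 12.4 to 14.4 CPM in mESCs on BGI, and the 2 cell types lie closest at Snai2.

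**Figure D2:**
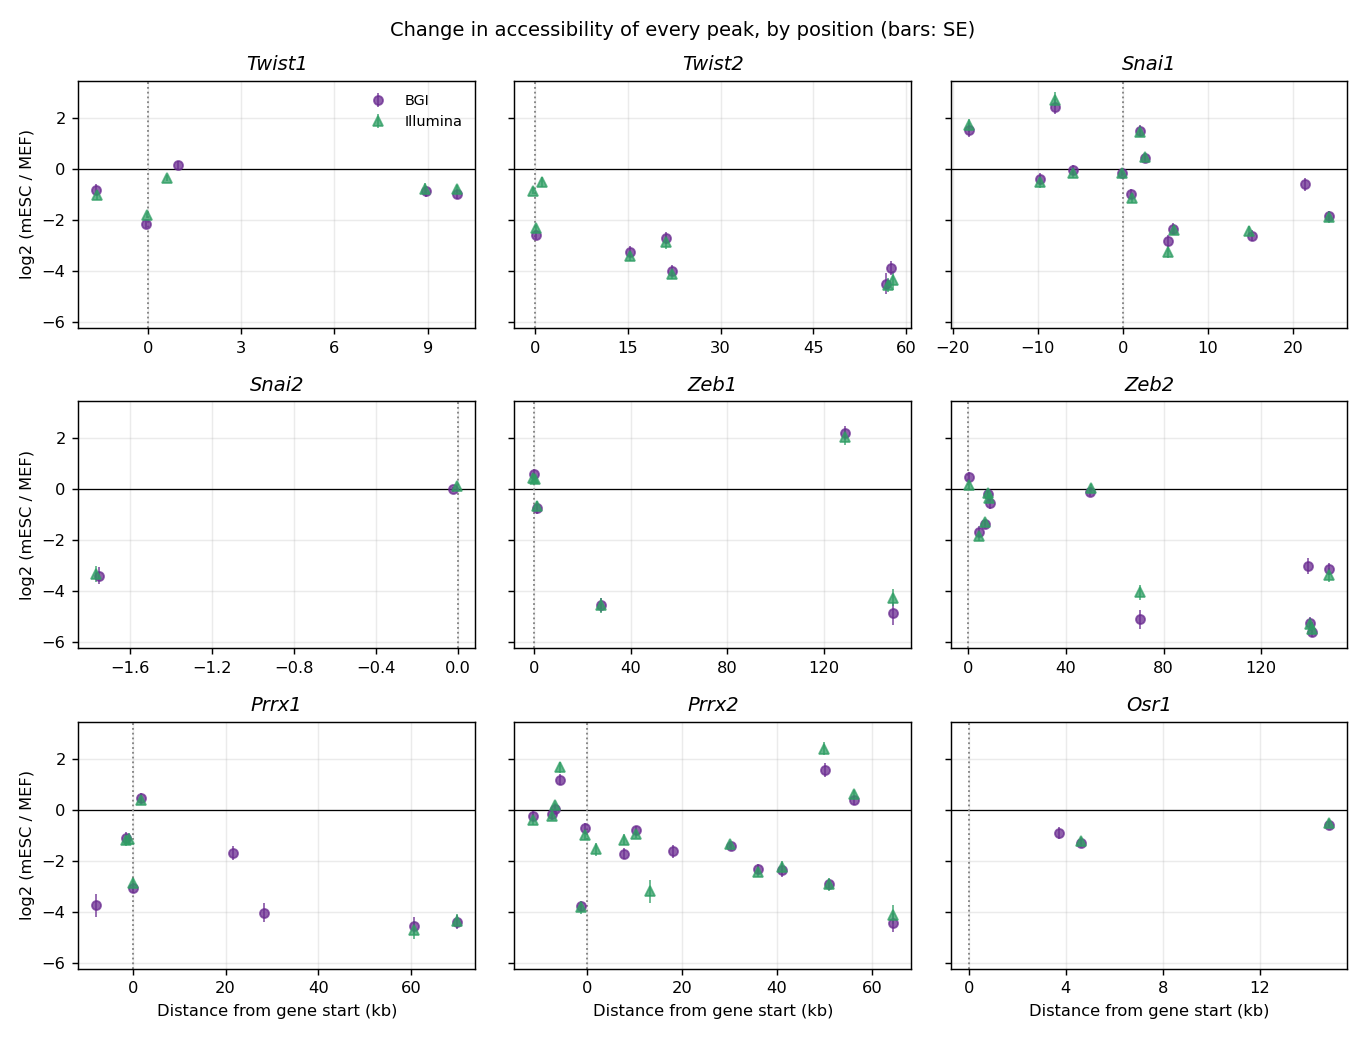
Change of every peak, log2(mESC/MEF) with its SE, against the distance of its centre from the annotated gene start (kb, in the direction of transcription), for BGI (circles) and Illumina (triangles). Every called Twist2 peak lies below 0, the Snai1 locus holds changes of both signs, and the lowest values stand about 140 kb from the start of Zeb2.

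Twist1 (chr12:33957671-33959829, + strand) was less accessible in mESCs on both platforms. Its summed level on BGI was 61.6, 66.3 and 67.2 CPM in MEF libraries 1, 2 and 4 and 29.1, 34.0 and 27.5 CPM in mESC libraries 1, 3 and 5. The ranges did not overlap, and the change was −1.17 ± 0.08 (adjusted p = 6.19e-11). On Illumina it was −1.15 ± 0.06 (adjusted p = 1.53e-12).

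The Twist1 promoter peak (chr12:33957354-33957855), centred 67 bp before the start, accounted for much of that level. It had 30.3, 35.8 and 34.9 CPM in MEFs and 6.75, 10.2 and 6.77 CPM in mESCs on BGI. Every MEF library was above every mESC library, with a change of −2.15 ± 0.15 (adjusted p = 5.14e-10). The matching Illumina peak had 47.3, 47.0 and 49.7 CPM in MEFs and 13.3, 15.1 and 13.8 CPM in mESCs, a change of −1.82 ± 0.09. At the next BGI peak, in the intron 968 bp past the start, the values overlapped at 7.21 to 8.72 CPM in MEFs and 7.82 to 10.8 CPM in mESCs (0.14 ± 0.18, adjusted p = 0.46). The second Illumina peak lay elsewhere, 616 bp past the start, and was lower in mESCs, at 12.5 to 15.1 CPM against 16.3 to 19.1 CPM in MEFs (−0.37 ± 0.13, adjusted p = 0.0133). The peak 9943 bp past the start had 10.1, 9.94 and 11.3 CPM in MEFs and 5.99, 6.09 and 4.22 CPM in mESCs (−1.0 ± 0.19, adjusted p = 8.46e-05).

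Twist2 (chr1:91801461-91848028, + strand) had the largest drop of the 9 loci. Its summed level was 130, 123 and 107 CPM in MEFs and 13.0, 14.4 and 12.4 CPM in mESCs on BGI. The change of −3.24 ± 0.09 (adjusted p = 2.83e-17) was lower than that of all but 1.45% of genes with a peak. On Illumina the change was −2.37 ± 0.07, where 2 more peaks close to the start entered the sum, with changes of −0.85 and −0.52. All 6 BGI peaks and all 8 Illumina peaks were lower in mESCs.

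The Twist2 promoter peak (chr1:91801381-91801882, reaching the coding exon) had 32.4, 30.2 and 33.2 CPM in MEFs and 5.17, 6.50 and 4.66 CPM in mESCs. Its change was −2.61 ± 0.14 (adjusted p = 1.94e-11), and −2.31 ± 0.12 on Illumina. The intronic peak 22143 bp past the start, whose central bases are printed above, had 23.3, 23.3 and 17.4 CPM in MEFs and 1.58, 1.54 and 1.06 CPM in mESCs. This site was close to closed in mESCs, with a change of −4.0 ± 0.21 (adjusted p = 1.49e-11), and −4.14 ± 0.20 on Illumina. Another intronic peak, 15382 bp past the start, varied among the MEFs themselves, with 45.7, 37.6 and 23.0 CPM in libraries 1, 2 and 4 against 3.59 to 4.32 CPM in mESCs. Illumina reads of the same libraries gave 36.2, 36.1 and 21.3 CPM, so MEF library 4 was the lowest on both platforms. At the downstream peak 56774 bp past the start, mESC library 3 had 0 reads, for which 3 reads, at most 0.189 CPM in any of these libraries, is the limit from counting alone. The other mESC libraries had 0.757 and 1.37 CPM there and the MEFs 12.7 to 16.9 CPM.

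Tcf21, a bHLH relative of Twist, had 0 peaks in either set, so no CPM was available. In the peak calls of single samples, which used a looser threshold, its window held 5 to 9 called summits per sample with a highest −log10 p of 9.31 to 20.2. Within 1 kb of the Tcf21 start the highest −log10 p was 7.35 to 12.2 in MEFs and 11.8 to 14.8 in mESCs on BGI, and 9.82 to 12.6 and 8.38 to 10.1 on Illumina. The median over all summits of a sample was 8.44 to 11.7, so the Tcf21 start stood near the middle of the called summits. In the same calls the Twist2 window held 78 to 89 summits in MEFs and 7 to 8 in mESCs on BGI, where whole samples held 223387 to 230117 and 236601 to 251837.

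Snai1 (chr2:167538195-167542814, + strand) kept an open promoter in both cell types, while the surrounding peaks changed in both directions. The promoter peak (chr2:167537825-167538326), the most accessible of the 9 on BGI in both cell types, had 50.6, 41.3 and 48.8 CPM in MEFs and 42.1, 46.8 and 41.2 CPM in mESCs on BGI. The ranges overlapped, and the change of −0.18 ± 0.10 did not pass the test (adjusted p = 0.105). On Illumina it was −0.17 ± 0.09 (adjusted p = 0.0775). Without MEF library 2, the lowest of the 3, the change was −0.26 on BGI and passed (adjusted p = 0.0363).

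Of the 13 BGI peaks at Snai1, 6 were lower, 3 higher and 4 did not pass. The clearest lower peak, 5281 bp past the start and downstream of the gene, had 19.8, 14.8 and 11.6 CPM in MEFs and 2.4, 2.13 and 2.30 CPM in mESCs (−2.83 ± 0.23, adjusted p = 2.45e-09). The clearest higher peak, 8004 bp upstream and shown above with the octamer core, had 1.15, 0.994 and 1.44 CPM in MEFs and 8.07, 5.56 and 6.96 CPM in mESCs (2.44 ± 0.28, adjusted p = 2.11e-07). Here the 2 cell types had changed places, and Illumina gave −3.27 ± 0.24 and 2.71 ± 0.29 for the same sites. Close to the gene, a peak in the coding exon 994 bp past the start fell from 7.85 to 9.23 CPM in MEFs to 3.61 to 5.28 CPM in mESCs, whereas one in the intron 1976 bp past the start rose from 2.53 to 3.24 CPM to 7.06 to 10.6 CPM. Summed over the locus, the level was 145 ± 13.7 CPM (SD, n = 3) in MEFs and 103 ± 6.88 CPM in mESCs (−0.55 ± 0.07, adjusted p = 2.94e-07). Over the gene body alone the change did not pass (0.02 on BGI, adjusted p = 0.807).

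Snai2 (chr16:14705852-14709385, + strand), also called Slug, also had an open promoter in both cell types, with no change past the threshold. Its promoter peak (chr16:14705580-14706081) had 24.0, 24.8 and 23.4 CPM in MEFs and 26.0, 25.5 and 24.4 CPM in mESCs (0.01 ± 0.10, adjusted p = 0.961). The ranges overlapped on BGI. On Illumina the mESC libraries, at 26 to 27.6 CPM, were all above the MEF libraries, at 23.3 to 25.2 CPM, and the change did not pass (0.12 ± 0.10, adjusted p = 0.245). The only other Snai2 peak, 1750 bp upstream, had 6.79, 8.90 and 4.83 CPM in MEFs and 0.820, 0.473 and 0.745 CPM in mESCs. That upstream site was lower in every mESC library (−3.39 ± 0.34, adjusted p = 4.07e-08, and −3.32 ± 0.33 on Illumina). The sum of both was 30.9 ± 2.71 CPM in MEFs and 26.0 ± 0.88 CPM in mESCs on BGI (−0.31 ± 0.10, adjusted p = 0.00761). It did not pass on Illumina (−0.18 ± 0.09, adjusted p = 0.0814), and on BGI not without MEF library 2 (−0.25, adjusted p = 0.0587). Over the gene body alone the Snai2 sum was higher in mESCs on both platforms and did not pass.

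Zeb1 carried intronic peaks that changed strongly in opposite directions and a promoter peak slightly higher in mESCs. The promoter peak, centred 171 bp before the start, had 6.79, 5.67 and 9.01 CPM in MEFs and 10.3, 13.2 and 10.2 CPM in mESCs on BGI. The ranges did not overlap (0.59 ± 0.19, adjusted p = 0.00853), though without mESC library 3 the call was lost (0.48, adjusted p = 0.0504). The peak had no one-to-one match on Illumina, where 2 peaks flanked the start and both were higher in mESCs.

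In the first part of the Zeb1 gene body, the peak 27769 bp past the start had 12, 11.2 and 14.1 CPM in MEFs and 0.630, 0.650 and 0.373 CPM in mESCs (−4.54 ± 0.26, adjusted p = 4.4e-11). The peak 128603 bp past the start had 1.20, 1.44 and 1.05 CPM in MEFs and 6.30, 6.27 and 5.16 CPM in mESCs (2.19 ± 0.28, adjusted p = 1.01e-06). Illumina gave −4.55 ± 0.29 and 2.06 ± 0.32, so these 2 intronic sites differed by cell type in opposite ways on both platforms. A further peak within the gene body, 148652 bp past the start, was lower in mESCs (−4.87 ± 0.45, adjusted p = 1.72e-08, and −4.25 ± 0.33 on Illumina). A second peak near the Zeb1 start, 1369 bp past it, was lower in mESCs on both platforms (−0.73 ± 0.24, adjusted p = 0.0105, and −0.65 ± 0.20, adjusted p = 0.00699). It separated 1 mESC library from the others: mESC library 3 had 9.28 CPM, within the MEF range of 8.91 to 11.1 CPM, while mESC libraries 1 and 5 had 4.48 and 4.60 CPM. Illumina gave 8.49 CPM for library 3 and 5.50 and 5.89 CPM for libraries 1 and 5. The Zeb1 sum was also highest in that mESC library on both platforms, 29.7 CPM against 21.8 and 21.2 CPM on BGI, with MEFs at 41.5 ± 1.73 CPM (−0.84 ± 0.11, adjusted p = 5.9e-07, and −0.44 ± 0.09 on Illumina).

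Zeb2 (chr2:44983632-45117395, − strand) was less accessible in mESCs at 2 of its 4 peaks near annotated starts, at an intronic peak 70260 bp past the start (−5.11 ± 0.37, adjusted p = 7e-10) and far downstream. Its level at the first annotated start, 102 bp past it, was 4.89, 6.16 and 5.53 CPM in MEFs and 7.57, 8.28 and 8.32 CPM in mESCs, higher in mESCs on BGI (0.48 ± 0.19, adjusted p = 0.0245). On Illumina the 3 mESC libraries were also above the MEF libraries, at 7.55 to 7.88 against 6.39 to 7.15 CPM, but the change did not pass (0.15 ± 0.17, adjusted p = 0.41). The promoter peak of Zeb2 with the highest mean over both cell types lay at an alternative start 6977 bp past the gene start (chr2:45110168-45110669), with 14.4, 14.7 and 17 CPM in MEFs and 5.49, 6.39 and 6.96 CPM in mESCs. It was lower in all mESC libraries (−1.35 ± 0.16, adjusted p = 2.87e-07, and −1.29 ± 0.14 on Illumina). The peak 4223 bp past the start was lower too (−1.67 ± 0.22, adjusted p = 1.56e-06), while the one 8060 bp past it did not pass (−0.19 ± 0.19, adjusted p = 0.352). Another, 8658 bp past the start, was lower on BGI (−0.53 ± 0.24, adjusted p = 0.0471). It did not pass on Illumina (−0.36 ± 0.20, adjusted p = 0.0985).

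The 4 Zeb2 peaks 139236 to 147994 bp past the start, beyond the end of the gene, were all lower in mESCs. The strongest (chr2:44976392-44976893) had 24.6, 26.3 and 24.0 CPM in MEFs and 0.504, 0.591 and 0.497 CPM in mESCs, more open in MEFs than any Zeb2 promoter peak. Its change of −5.60 ± 0.20 (adjusted p = 2.42e-13) was the lowest of all 69 peaks, and Illumina gave −5.47 ± 0.25. Its neighbour 140085 bp past the start had 18.4, 19.7 and 17.6 CPM in MEFs and 0.378, 0.650 and 0.497 CPM in mESCs. An intronic peak 50028 bp past the start did not differ by the test, with 8.22, 10.4 and 9.01 CPM in MEFs and 8.32, 10.1 and 8.63 CPM in mESCs (−0.10 ± 0.17, adjusted p = 0.59). The Zeb2 sum was 124 ± 5.04 CPM in MEFs and 41.0 ± 1.85 CPM in mESCs (−1.66 ± 0.06, adjusted p = 2.5e-15), and over the gene body alone the change was −0.68.

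Prrx1 (chr1:163245119-163313710, − strand) was lower in mESCs at 7 of its 8 BGI peaks, the promoter peak among them. The promoter peak (chr1:163313366-163313867) had 15.0, 13.4 and 17.3 CPM in MEFs and 1.95, 1.36 and 2.36 CPM in mESCs (−3.07 ± 0.21, adjusted p = 3.69e-10, and −2.89 ± 0.26 on Illumina). The downstream peak 70011 bp past the start, shown above with AP-1 and TWIST matches, had 9.74, 9.34 and 13.8 CPM in MEFs and 0.504, 0.532 and 0.559 CPM in mESCs (−4.41 ± 0.28, adjusted p = 1.38e-10). Both sites were low in every mESC library.

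The exception at Prrx1 was an intronic peak 1635 bp past the start with 6.37, 6.06 and 5.58 CPM in MEFs and 6.81, 9.70 and 9.63 CPM in mESCs. It was higher in mESCs on BGI (0.47 ± 0.19, adjusted p = 0.0319) and did not pass on Illumina (0.37 ± 0.19, adjusted p = 0.082). On BGI it also did not pass without MEF library 2, MEF library 4, mESC library 3 or mESC library 5 (adjusted p = 0.0562, 0.0609, 0.0973 and 0.118). The Prrx1 sum was 68.0 ± 3.13 CPM in MEFs and 17.8 ± 1.60 CPM in mESCs (−2.0 ± 0.09, adjusted p = 2.2e-14).

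Prrx2 (chr2:30834972-30881251, + strand) had the most peaks, 16 on BGI, of which 10 were lower, 2 higher and 4 did not pass. Its promoter peak (chr2:30833551-30834052), 1171 bp before the start, had 21.0, 19.6 and 24.1 CPM in MEFs and 1.58, 1.60 and 1.68 CPM in mESCs. This was the largest change of the 9 promoter peaks (−3.80 ± 0.18, adjusted p = 3.67e-12, and −3.83 ± 0.26 on Illumina). The RefSeq start of Prrx2 lies 10395 bp downstream of the GENCODE gene start, and the peak there had 9.97, 12.8 and 13.1 CPM in MEFs and 7.38, 7.75 and 6.21 CPM in mESCs, a smaller drop (−0.81 ± 0.17, adjusted p = 0.00028).

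Downstream of Prrx2, 2 peaks less than 1 kb apart changed in opposite directions. The peak 51026 bp past the start had 11.1, 10.3 and 12.9 CPM in MEFs and 1.77, 1.30 and 1.68 CPM in mESCs (−2.92 ± 0.22, adjusted p = 1.04e-09). The peak 50078 bp past the start had 1.89, 1.94 and 1.59 CPM in MEFs and 4.22, 6.45 and 6.21 CPM in mESCs (1.57 ± 0.27, adjusted p = 4.2e-05). Illumina gave −2.93 ± 0.26 and 2.39 ± 0.27. The Prrx2 window also takes in the neighbour Asb6, and 3 of the 16 peaks lay within 1 kb of its starts. The most open of them had 25.7, 23.3 and 26.7 CPM in MEFs and 24.7, 27.9 and 28.1 CPM in mESCs (0.03 ± 0.10, adjusted p = 0.822). The Prrx2 sum was 179 ± 11.5 CPM in MEFs and 105 ± 2.27 CPM in mESCs (−0.84 ± 0.05, adjusted p = 9.91e-12), and −1.43 with peaks at starts of other genes left out or −1.52 over the gene body alone.

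Osr1 (chr12:9570116-9581500, + strand) had 3 BGI peaks, all lower in mESCs, and none at the first annotated start. The most accessible of those near an annotated start, 4631 bp past the gene start (chr12:9574497-9574998), had 16.4, 15.3 and 17.3 CPM in MEFs and 8.07, 7.27 and 5.47 CPM in mESCs (−1.30 ± 0.16, adjusted p = 8.6e-07, and −1.22 ± 0.13 on Illumina). The downstream peak 14872 bp past the start had 19.2, 19.2 and 17.7 CPM in MEFs and 12.3, 14 and 12.4 CPM in mESCs (−0.60 ± 0.13, adjusted p = 0.000316). Both sites had reads in every mESC library, below all MEF libraries. The Osr1 sum was 40.9 ± 1.03 CPM in MEFs and 23.1 ± 1.89 CPM in mESCs (−0.89 ± 0.09, adjusted p = 2.65e-08).

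The promoter peaks have about the same width, and their levels are set side by side on BGI, where counts of GC-rich peaks can differ from those on Illumina. For each gene this is the promoter peak with the highest mean over both cell types, and the order holds for that peak only. In MEFs on BGI the order of mean levels was Snai1 (46.9 CPM), Twist1 (33.7), Twist2 (31.9), Snai2 (24.1), Prrx2 (21.5), Osr1 (16.3), Zeb2 (15.3), Prrx1 (15.2) and Zeb1 (7.15). The libraries' ranges overlapped between Twist1 and Twist2, between Snai2 and Prrx2, and among Osr1, Zeb2 and Prrx1. In mESCs the order was Snai1 (43.4 CPM), Snai2 (25.3), Zeb1 (11.2), Twist1 (7.90), Osr1 (6.94), Zeb2 (6.28), Twist2 (5.44), Prrx1 (1.89) and Prrx2 (1.62), with overlapping ranges between neighbours from Twist1 to Twist2 and between Prrx1 and Prrx2. Snai1 and Snai2 had the 2 highest levels in mESCs. Other promoter peaks of some genes stood higher in 1 cell type: in mESCs Zeb2 had 7.57 to 8.32 CPM at its first start and Prrx2 had 6.21 to 7.75 CPM at its RefSeq start, and in MEFs Zeb1 had 8.91 to 11.1 CPM 1369 bp past its start. The second Twist1 promoter peak on BGI, described above, also had a higher mean in mESCs than the one ranked here, with overlapping ranges. On Illumina, where Zeb1 had no match, the Twist1 level was 48 CPM in MEFs and 14 CPM in mESCs. Its MEF range there overlapped that of Snai1 (49.2 CPM), and in MEFs Zeb2 (20.3 CPM) stood above Prrx2 (19.3 CPM), with overlapping ranges.

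**Figure D3:**
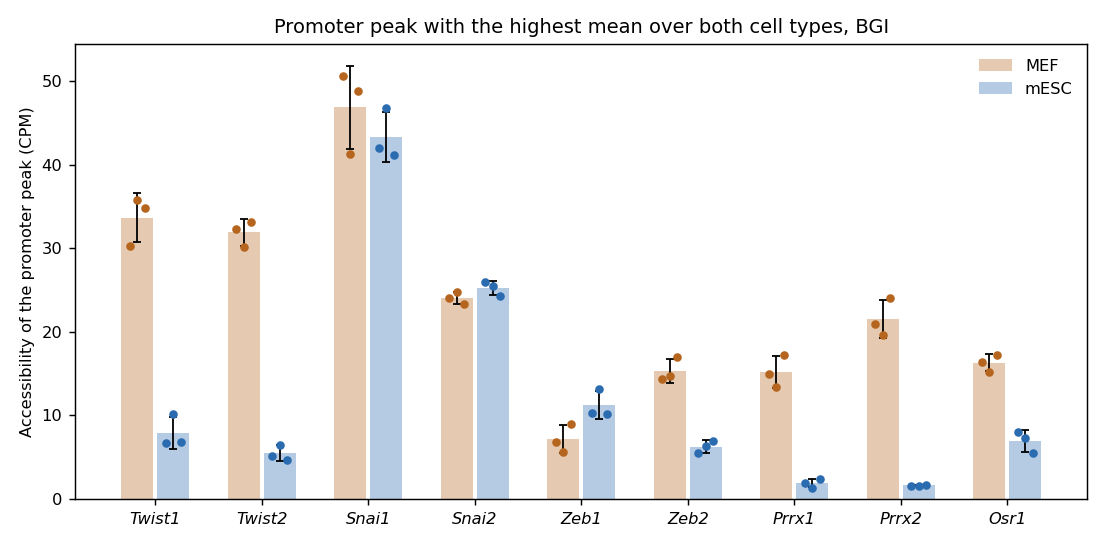
Accessibility (CPM), on BGI, of the promoter peak of each gene with the highest mean over both cell types. Bars are means of 3 libraries, error bars SD, and points the libraries. MEFs and mESCs overlap at Snai1 and Snai2, mESCs are higher at Zeb1 (11.2 against 7.15 CPM), and MEFs are higher at the other 6 genes.

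The deposited lists of reproducible peaks, made by the authors for each cell type and platform, were compared with the same peaks by overlap. The peak sets were built from such reproducible peaks, so every peak overlapped a list, and the overlap is not separate evidence. Of the 69 BGI peaks, 46 overlapped the MEF list only, 9 the mESC list only and 14 both, by at least 50% of their width. These are 66.7%, 13.0% and 20.3%, beside 32.8%, 36.4% and 30.8% of all BGI peaks. On Illumina the counts were 42, 11 and 15 of 68, or 61.8%, 16.2% and 22.1%, beside 31.1%, 37.6% and 31.3% of all Illumina peaks. At Twist2 all 6 BGI peaks overlapped the MEF list only, and on Illumina 7 did and 1 overlapped the mESC list only. Overlap with a list did not follow the level throughout. That Twist2 peak, 426 bp before the start, was lower in mESCs (14.7 against 8.42 CPM), and the Snai2 promoter on Illumina, at 24.0 CPM in MEFs, overlapped the mESC list only.

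The same sites could be followed on both platforms for 58 peaks. The call was the same at 52 of them, 38 being lower and 6 higher on both, and 0 peaks were called in opposite directions. Of the others, 3 were called on BGI only (at Zeb2, Zeb2 and Prrx1) and 3 on Illumina only (at Snai1, Snai1 and Prrx2). The log2 changes differed by a median of 0.14 and at most by 1.07, at the Zeb2 peak 70260 bp past the start, where mESCs had 2 to 6 reads per library on BGI. Both platforms read the same libraries, so this is a technical repeat.

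**Figure D4:**
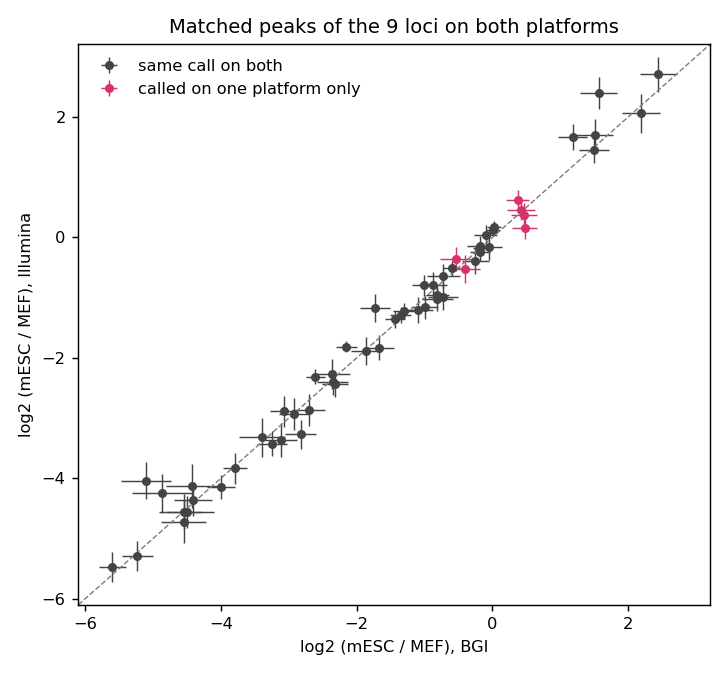
Change between cell types, log2(mESC/MEF) with SE, at the 58 peaks matched between platforms, BGI on the horizontal and Illumina on the vertical axis, with the dashed line marking equal values. Points follow the line from −5.60 at Zeb2 to 2.44 at Snai1 on BGI, and the 6 peaks called on 1 platform only lie close to 0.

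Platforms were also compared directly, within each cell type, on peak sets the authors made for that cell type. The MEF set held 66 peaks at these loci and the mESC set 29. In MEFs 2 of 66 passed, both lower on BGI and both at Twist1: the promoter peak 40 bp before the start (log2(BGI/Illumina) −0.46 ± 0.07, adjusted p = 0.0118) and the peak 616 bp past it (−0.76 ± 0.13, adjusted p = 0.0154). Over all MEF peaks 4.06% passed, 3.96% being lower on BGI. In mESCs 2 of 29 passed, again both lower on BGI: Twist1 295 bp past the start (−0.80 ± 0.18, adjusted p = 0.0341) and Zeb1 155 bp before the start (−0.58 ± 0.13, adjusted p = 0.0276). Over all mESC peaks 3.23% passed, 3.19% being lower on BGI.

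These 4 peaks were rich in GC, with 71.6%, 72.9%, 77.9% and 66.1%, beside a median of 54.6% over the 69 BGI peaks. With an offset for GC content 0 peaks of the loci passed in either cell type (4 at an unadjusted p under 0.05 in each), where 0.0% of all MEF peaks and 0.00447% of all mESC peaks passed. With the library as a block, 15 of 66 passed in MEFs (7 higher and 8 lower on BGI) and 8 of 29 in mESCs, where 29.2% and 21.3% of all peaks passed. With the block and the GC offset together, 6 of 66 and 6 of 29 passed, where 10.6% and 10.1% of all peaks passed. Whether the change between cell types differed between platforms was tested as an interaction in edgeR. Of the 69 peaks 0 passed, 1 had an unadjusted p under 0.05, and 0.0% of all peaks passed, with 2386 at an unadjusted p under 0.05. On simulated data this fit recovered 38% of log2 changes of 1, so such differences can be missed. With the library as a block 0 of 69 passed, 6 had an unadjusted p under 0.05, and 0.386% of all peaks passed.

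The motifs marked in the sequences were counted over whole peaks on BGI. CAGGTG stood in 12 of the 48 peaks lower in mESCs (25%), beside 19.6% of all lower peaks, and in 3 of the 9 higher peaks (33.3%), beside 44.0% of all higher peaks. Over all 69 peaks its share was 31.9%, the same as over all BGI peaks. CATNTG stood in 52.1% of the lower peaks, beside 66.7%, and in 7 of the 9 higher peaks (77.8%), beside 62.7%. TGANTCA stood in 29.2% of the lower peaks, beside 35.6%, and in 0 of the 9 higher peaks, beside 18.6% of all higher peaks. The octamer core stood in 2 of the 9 higher peaks (22.2%, beside 11.2%), those printed above, and in 4.17% of the lower peaks (beside 8.14%). The TEAD letters stood in 15 of the 48 lower and 4 of the 9 higher peaks, the RUNX letters in 5 and 0, the SOX letters in 13 and 3, the ESRRB letters in 1 and 0, and the KLF letters in 7 and 2. In that order, 31.25%, 10.4%, 27.1%, 2.08% and 14.6% of the lower peaks held them, beside 37.4%, 13.2%, 20.3%, 6.69% and 12.9% of all lower peaks. For the higher peaks it was 44.4%, 0%, 33.3%, 0% and 22.2%, beside 29.0%, 9.56%, 22.7%, 13.6% and 18.7% of all higher peaks. Over all 69 peaks these 5 motifs had shares of 34.8%, 10.1%, 27.5%, 2.90% and 20.3%, beside 31.7%, 10.9%, 20.4%, 9.59% and 15.4% over all BGI peaks. With 9 peaks a single match shifts a share by over 10 percentage points.

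A list of epithelial genes, a class that SNAI and ZEB proteins repress, had mostly higher peaks in mESCs, whereas the factor loci had mostly lower ones. The promoter peaks of these repressors, ranked above on BGI, did not share 1 direction. Those of Snai1 and Snai2 did not pass the test (−0.18 and 0.01), that of Zeb1 was higher in mESCs (0.59) and that of Zeb2 lower (−1.35). The list held Cdh1, Cldn4, Crb3, Epcam, Esrp1, Esrp2, Grhl2, Mir200b, Mir200c, Ocln, Ovol1 and Ovol2, of which Epcam (4 of 4 peaks higher) is a protein the mESCs were sorted on. Of 99 BGI peaks at these 12 genes, 76 were higher in mESCs and 8 lower, with a median log2 change of 2.25, beside 40.9%, 43.2% and −0.08 over all peaks. The promoter peak of Cdh1, which encodes E-cadherin, rose from 6.64 ± 0.719 to 29.3 ± 1.96 CPM, and that of Esrp1, an epithelial splicing factor, from 1.10 ± 0.164 to 14.8 ± 2.10 CPM. Of 71 peaks at 6 mesenchymal genes, 7 were higher and 62 lower (median −2.37). Col1a1, a collagen gene, gave 28 of the lower peaks, and at Fn1, which encodes fibronectin, 5 of 10 peaks were higher and 4 lower, with a lower promoter peak (49.1 and 34.4 CPM). The promoter peak of Vim, which encodes vimentin, fell from 46.9 ± 0.995 to 13.1 ± 0.567 CPM, and that of Postn, a matrix protein gene, from 10.6 ± 1.33 to 0.532 ± 0.139 CPM.

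For the partners of these factors the shares to read beside are again 40.9% higher and 43.2% lower over all peaks. At the E proteins and their Id inhibitors, 28 of 90 peaks were higher and 50 lower (median −0.56). Tcf3 leaned the other way, with 11 of its 17 peaks higher and 3 lower. Id1 had the largest promoter change among them, from 40.3 ± 4.54 to 14.2 ± 1.65 CPM, while the Tcf4 promoter did not pass the test (26.2 ± 1.56 and 27.1 ± 2.52 CPM, adjusted p = 0.892). At the bHLH relatives Hand1 and Hand2, 6 of 12 were higher and 3 lower (median 0.33). Hand1 had 5 of the higher peaks, while its promoter peak was lower in mESCs (7.55 and 3.35 CPM, −1.24 ± 0.23, adjusted p = 8.58e-05), and Hand2 had 1 higher and 2 lower. At the corepressors Ctbp1 and Ctbp2, which SNAI and ZEB proteins bind, 15 of 30 were higher and 10 lower (median 0.44). All 15 higher peaks were at Ctbp2, whose other called peaks were 8 lower ones, and Ctbp1 had 0 higher and 2 lower. Both promoter peaks were lower in mESCs, with changes of −0.62 ± 0.11 at Ctbp1 (adjusted p = 4.14e-05) and −0.89 ± 0.10 at Ctbp2 (adjusted p = 2.7e-07). Illumina gave medians of 2.26 for the epithelial genes, −2.35 for the mesenchymal genes, −0.56 for E proteins and Id factors, 0.47 for the bHLH relatives and 0.58 for the corepressors.

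**Figure D5:**
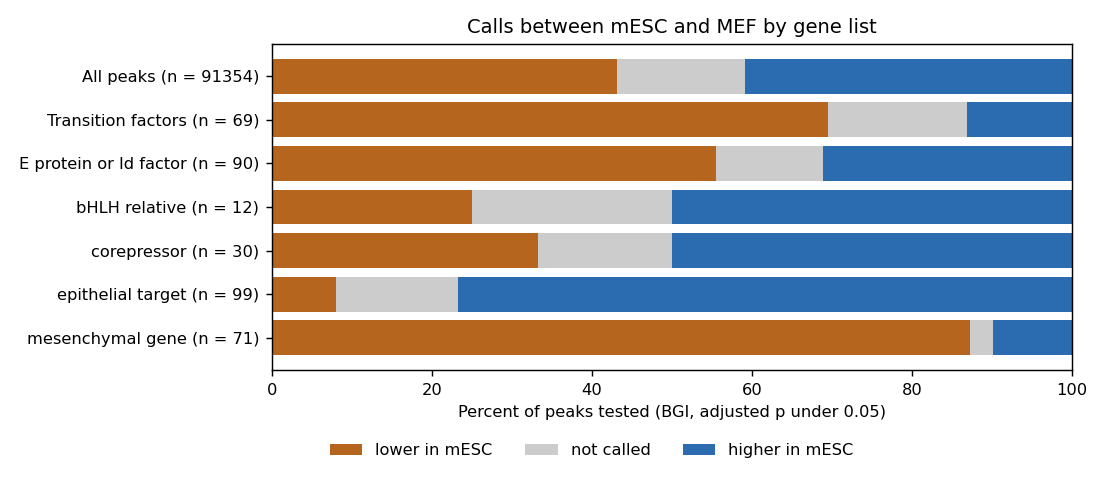
Share of BGI peaks lower in mESCs, not called and higher in mESCs (percent of peaks tested) for all peaks, the 9 transition factor loci and the 5 lists of partner and target genes, with the number of peaks in brackets. The transition factor loci lean to lower in mESCs (69.6%) as the mesenchymal genes do, and the epithelial genes lean the other way.

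Promoter peaks of the defining markers of the sorted cells differed between them except that of Pdgfra. Promoter peaks of Thy1, Col1a1 and Col1a2 were lower in mESCs and those of Pou5f1, Nanog, Esrrb and Epcam higher, while that of the fibroblast receptor gene Pdgfra did not pass (24.7 and 27.3 CPM), though 10 of its 13 BGI peaks were lower in mESCs and 2 higher. Of marker genes of other cells, Hbb-bs (red blood cells) had no peak in its window and Ptprc (blood), Cdh5 (endothelium) and Krt14 (keratinocytes) had no promoter peak, and promoter peaks of Sox1 (4.46 against 26.5 CPM), Sox17 (3.14 against 18.6 CPM) and Myod1 (2.87 against 9.78 CPM) were higher in mESCs. The Pecam1 promoter (endothelium) did not pass (8.97 and 7.74 CPM), and that of Gata6 (primitive endoderm) was lower in mESCs (35.2 and 23.6 CPM). The most accessible Pax6 (neural) promoter peak of each set was at 7.80 and 21.3 CPM on BGI and 18.9 and 14.3 CPM on Illumina. By BGI peaks, Pecam1 had 10 of 15 higher in mESCs and 3 lower, Krt14 4 of 4 higher, Myod1 5 of 5 higher, Pax6 7 of 8 higher and 1 lower, Sox1 6 of 7 higher and 1 lower, Sox17 3 of 3 higher, Gata6 1 of 4 higher and 3 lower, Ptprc 2 of 2 lower, and Cdh5 1 of 2 lower. Over all BGI peaks 40.9% were higher in mESCs and 43.2% lower. The part of other cells in the values at the 9 loci was not tested. Reads in peaks were 15860985 to 21662775 per BGI library and 15996202 to 21441767 per Illumina library.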

How the data were processed

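The authors aligned reads trimmed to 100 bp to GRCm38 with Bowtie2, removed duplicate and mitochondrial reads, and down-sampled to 60000000 (MEF) or 45000000 (mESC) reads. They called peaks per sample with MACS2 (deposited scores are −log10 p-values), kept reproducible peaks of fixed width, and deposited featureCounts counts of reads per peak. Columns with no platform in their name were taken as Illumina. From the deposited counts, CPM was computed on reads in peaks (15860985 to 21662775 per BGI library), and tests used edgeR 4.0.16 (R 4.3.3, TMM, filterByExpr, which removed 0 peaks here), with DESeq2 1.42.0 as an alternative. Tables were handled with Python 3.11.15 and pandas 2.3.3. The main fits and the platform fits with a library block were tested on simulated data, the other alternatives were not. Between cell types, log2 changes of 1 were recovered at 69% (BGI) and 80% (Illumina) of simulated peaks. The members and gene lists were chosen with earlier results of these data known.

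For each gene the text names the promoter peak with the highest mean count and the other called peaks with the lowest p in each direction, each with its Illumina match (at least 50% overlap). Further peaks were chosen after their values were seen. The 2 platforms read the same libraries: deviations from group means correlated at 0.618 to 0.836 (MEF) and 0.514 to 0.722 (mESC) for the same library, against −0.676 to 0.298 and −0.509 to −0.114 for different ones. The libraries of 1 cell type differ from those of the other. Intervals from counting cover counting error only.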

Additional observations from a re-analysis of the deposited data

How the results depend on the processing

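No paired analysis was possible because MEFs and mESCs are different cells that share only the number 1, so the replicate block was fitted for the platform comparisons alone. The window set how many peaks were called between cell types: 30 on BGI (25 lower, 5 higher) and 28 on Illumina (24 lower, 4 higher) over the gene body with no extension, and 95 (74 and 21) and 93 (73 and 20) with 50 kb. Higher peaks on Illumina numbered 6 with 5 kb, and 6 where a log2 change of at least 1 was required. Leaving out single libraries gave 53 to 56 called peaks on BGI and 54 to 59 on Illumina. For the platform comparison at member peaks, the replicate block gave 15 calls in MEFs and 8 in mESCs, the GC offset 0 in both, the block with the GC offset 6 in both, and DESeq2 5 in MEFs. Without MEF library 1, 2 or 4 it gave 0, 0 and 6, without mESC library 1, 3 or 5 it gave 0, 2 and 0. For the interaction the replicate block gave 0 calls. The Snai2 promoter on BGI changed sign without MEF library 4 (−0.026) and without mESC library 1 (−0.015). Leaving out MEF library 1 gave it its highest value, 0.057, with the sign kept. Over the gene body alone the sums of Snai1 (0.021 on BGI and 0.0078 on Illumina) and Snai2 (0.076 and 0.18) changed sign. None of these passed the test, and the cause was not tested. Scaling each library to its stated read number, without TMM, shifted the median of all BGI peaks by about the same step as that of all Illumina peaks (−0.08 became 0.06, and −0.03 became 0.09). The median of all loci became 0.14 and 0.12, from about 0. Under it the Snai2 sum on BGI no longer passed (−0.18, adjusted p = 0.154), and on Illumina the Snai2 promoter (0.25, adjusted p = 0.0385) and the Prrx1 intronic peak (0.50, adjusted p = 0.0273) passed. The Illumina Snai1 promoter passed by DESeq2 (adjusted p = 0.0381) and without MEF library 2, MEF library 4 or mESC library 3 (adjusted p = 0.0292, 0.0336 and 0.0122), and the Illumina Snai2 sum without MEF library 4 (adjusted p = 0.0351) and with peaks at other genes' starts left out (−0.31, adjusted p = 0.00486). For single peaks and loci, 665 alternative values kept their direction and side of the threshold, 10 newly passed, 7 no longer did and 6 changed sign.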
